A study of Mus musculus with 40 samples.

Results

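The genes described here are 10 phosphodiesterases of cyclic nucleotides, Pde1a, Pde2a, Pde3a, Pde3b, Pde4a, Pde4b, Pde4d, Pde7b, Pde8a and Pde10a, taken by their symbols from a table of 53863 symbols. They are 10 of 24 genes with Pde symbols that were looked up, whether or not each of the 24 codes for a catalytic enzyme. All 10 passed the filter on low counts in each of the 4 tissues. Messenger RNA had been sequenced from liver and from 3 fat depots of wild-type adult C57BL/6 mice: brown adipose tissue (BAT), inguinal white fat (iWAT) and epididymal white fat (eWAT). Cold mice had spent 24 h at 4 °C and thermoneutral mice the same time at 30 °C, after housing at 22 °C with standard diet and free water. Each of the 8 groups had 5 libraries, named by tissue, exposure and a replicate number, and total counts ran from 46508261 to 86681722 over the 40 libraries. The labels do not say whether libraries came from separate animals, so the p-values measure only the spread between these samples.

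Phosphodiesterases break the second messengers cAMP and cGMP and so end the signal that noradrenaline starts through beta-adrenergic receptors in fat cells and that glucagon starts in hepatocytes. The families differ in substrate and in control: PDE4, PDE7 and PDE8 act on cAMP, PDE1 is switched on by calcium and calmodulin, PDE2 is stimulated by cGMP, PDE3 is inhibited by cGMP, and PDE10 acts on both messengers. PDE3B is the enzyme through which insulin restrains lipolysis in adipocytes. PDE4 and PDE3 enzymes are themselves phosphorylated by protein kinase A, a feedback that is known from several cell types.

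The tissue labels were checked against marker genes. The summed level of 6 brown adipocyte markers was 14321 to 18544 counts scaled to library size (CPM) in cold BAT and 2914 to 3588 CPM in thermoneutral BAT, and at most 1135 CPM in any other library. The summed level of 7 hepatocyte markers was 158368 to 195647 CPM in cold liver and 167483 to 194799 CPM in thermoneutral liver, and at most 4188 CPM in any adipose library. Levels below are CPM on library sizes scaled by the TMM method over all 40 libraries. Changes are log2 fold changes of cold over thermoneutral with their standard error, from edgeR's quasi-likelihood test on the 10 libraries of a tissue. A gene is said to have risen or fallen where its Benjamini-Hochberg adjusted p, over all genes tested in that tissue, was under 0.05. In bulk tissue a change in the number of cells of a type and a change in RNA per cell cannot be told apart.

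In BAT 6 of the 10 genes changed in the cold. Pde7b, Pde4d, Pde3a and Pde4a rose, and Pde1a and Pde4b fell. Among all 15288 genes tested in BAT, 60.2% changed, 30.2% upwards and 30.0% downwards, so the share of phosphodiesterases that changed was near that of all genes. The median size of change, regardless of sign, was 0.91 on the log2 scale for the 10 genes and 0.52 for all genes tested. The 6 genes had groups that did not overlap, 4 with every cold library above and 2 with every cold library below, where 46.4% of all genes tested had such groups.

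Pde7b, a cAMP-specific enzyme of high affinity, changed most. Its level was 102, 114, 135, 144 and 165 CPM in the 5 cold BAT libraries, against 11.8, 13.9, 13.5, 14.1 and 13.7 CPM in the 5 thermoneutral BAT libraries. The lowest cold library stood far above the highest thermoneutral one. The means were 132 ± 24.7 CPM in cold BAT and 13.4 ± 0.946 CPM in thermoneutral BAT (SD, n = 5 each), a 10.1-fold rise (log2 3.33 ± 0.13, edgeR adjusted p = 1.45e-08).

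The PDE4 family makes cAMP-specific enzymes that are tied to receptors and anchoring proteins, and its 3 genes here did not move in 1 direction. Pde4d had 124, 129, 178, 178 and 211 CPM in cold BAT, against 46.3, 85.1, 45.9, 42.97 and 51.6 CPM in thermoneutral BAT. Replicate 2 of the thermoneutral libraries, at the top of its group, still lay under every cold library. Pde4d rose 3.07-fold (log2 1.62 ± 0.22, edgeR adjusted p = 8.11e-05). Pde4a had 73.1, 84.2, 104, 123 and 117 CPM in cold BAT and 57.9, 70.1, 57.2, 46.5 and 52.3 CPM in thermoneutral BAT. The groups lay close together without overlap, and Pde4a rose 1.80-fold (log2 0.85 ± 0.15, adjusted p = 0.000524). Pde4b, whose enzyme is known for its part in immune cells, went the other way, with 9.62, 7.06, 7.53, 7.15 and 10.3 CPM in cold BAT and 14.8, 14.3, 19.6, 19.2 and 17.5 CPM in thermoneutral BAT. It was 2.01-fold lower in cold BAT (log2 -1.01 ± 0.14, adjusted p = 6.48e-05). Beside it, the summed level of 9 lymphocyte markers was 5.21 to 21.5 CPM in cold BAT and 14.1 to 36.3 CPM in thermoneutral BAT, with 4 of the 9 lower and none at 0 in every library. The 7 macrophage markers summed to 55.01 to 347 CPM in cold BAT, where replicate 2 was highest and the other 4 lay under every thermoneutral library, and to 134 to 195 CPM in thermoneutral BAT, with 0 of the 7 called by edgeR and 0 at an unadjusted p under 0.05. The part of macrophages in the change of Pde4b was not tested. With the lymphocyte marker level as a covariate the log2 change of Pde4b was -1.10 (edgeR adjusted p = 0.00386). That covariate comes from the same 9 markers, of which 4 were lower in cold BAT, so this run cannot separate lymphocytes from cold. The part of lymphocytes in the change was not tested either.

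The 2 genes of the PDE3 family, which bind cAMP tightly and are inhibited by cGMP, differed. Pde3a, the form known best from heart, platelets and smooth muscle, had 27.4, 27.8, 31.4, 39.9 and 33.7 CPM in cold BAT and 15.9, 16.02, 11.2, 10.6 and 14.2 CPM in thermoneutral BAT. All 5 cold libraries were higher, and Pde3a rose 2.40-fold (log2 1.26 ± 0.15, adjusted p = 1.93e-05). Pde3b, the adipocyte form, had 265, 323, 322, 356 and 347 CPM in cold BAT and 312, 365, 271, 283 and 332 CPM in thermoneutral BAT. The groups overlapped over most of their range, and its log2 change was 0.072 ± 0.11 (adjusted p = 0.584).

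Pde1a, a calcium- and calmodulin-stimulated enzyme known from vascular smooth muscle, had 9.81, 15.6, 14.3, 16.7 and 13.4 CPM in cold BAT and 29.3, 32.4, 27.99, 24.9 and 24.9 CPM in thermoneutral BAT. It was 1.96-fold lower in cold BAT (log2 -0.97 ± 0.13, adjusted p = 6.94e-05), with no overlap. Beside it, 8 markers of smooth muscle cells and pericytes summed to 353 to 421 CPM in cold BAT and 613 to 753 CPM in thermoneutral BAT. Of these markers 3 rose, 3 fell and none was at 0 in every library. The 7 fibroblast markers summed to 152 to 320.4 CPM in cold BAT and 292 to 681 CPM in thermoneutral BAT, with 5 of the 7 lower and none at 0, and the part of either cell type in the change of Pde1a was not tested. The 8 adipocyte markers, beside the genes that rose, summed to 13832 to 17110 CPM in cold BAT and 8855 to 10638 CPM in thermoneutral BAT, with 2 of the 8 higher and 2 lower. Their sums separate the groups, but their mean log2 CPM per library overlapped, at 8.74 to 9.15 in cold and 8.68 to 9.12 in thermoneutral BAT. The part of adipocytes was not tested either. The other 3 genes did not pass the test in BAT. Pde2a, the cGMP-stimulated enzyme, had a log2 change of 0.22 ± 0.15 (adjusted p = 0.24), Pde8a -0.12 ± 0.12 (0.412) and Pde10a -0.19 ± 0.14 (0.243). The 6 calls in BAT held under every alternative run, among them leaving out any 1 of the 10 libraries.

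Windows around annotated starts of 4 genes that changed in BAT are shown because these genes moved in opposite directions and cAMP acts on transcription through the site TGACGTCA. Each has 250 bases before to 50 after a start in RefSeq (GRCm38.p6), 5′ to 3′ on the gene's strand, in lower case. Capitals mark CGTCA, which is the short form TGACG read on the opposite strand. Pde7b and Pde4d each had 1 window in the table, and for Pde4a and Pde4b the window with the short form is given. The data are counts per gene and do not say which start was used.
Pde7b, chr10:20548279-20548578, minus strand: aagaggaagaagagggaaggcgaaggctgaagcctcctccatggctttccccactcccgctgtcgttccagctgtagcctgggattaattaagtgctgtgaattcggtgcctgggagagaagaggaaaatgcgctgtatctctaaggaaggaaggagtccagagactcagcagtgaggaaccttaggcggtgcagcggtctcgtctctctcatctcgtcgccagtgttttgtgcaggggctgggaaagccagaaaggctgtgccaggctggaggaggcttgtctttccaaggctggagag
Pde4d, chr13:108653927-108654226, plus strand: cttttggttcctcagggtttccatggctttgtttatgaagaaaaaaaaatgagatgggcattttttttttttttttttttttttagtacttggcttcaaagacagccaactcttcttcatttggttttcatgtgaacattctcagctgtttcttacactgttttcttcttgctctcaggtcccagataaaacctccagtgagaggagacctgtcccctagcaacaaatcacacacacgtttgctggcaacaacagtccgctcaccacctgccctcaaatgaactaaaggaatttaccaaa
Pde4a, chr9:21183851-21184150, plus strand: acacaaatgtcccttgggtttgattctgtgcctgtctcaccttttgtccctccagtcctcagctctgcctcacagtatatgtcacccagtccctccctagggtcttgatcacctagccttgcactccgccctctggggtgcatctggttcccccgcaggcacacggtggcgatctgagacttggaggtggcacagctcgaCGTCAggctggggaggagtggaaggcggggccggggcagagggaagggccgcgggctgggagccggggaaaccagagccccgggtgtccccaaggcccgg
Pde4b, chr4:102421305-102421604, plus strand: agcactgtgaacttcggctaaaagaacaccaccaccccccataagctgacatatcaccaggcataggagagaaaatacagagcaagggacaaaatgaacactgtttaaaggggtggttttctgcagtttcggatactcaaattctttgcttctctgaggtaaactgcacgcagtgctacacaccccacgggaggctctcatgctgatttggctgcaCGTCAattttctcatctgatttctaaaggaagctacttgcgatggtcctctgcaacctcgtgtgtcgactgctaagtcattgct
The table had 21 windows for 8 of the 10 genes. The full site TGACGTCA stood in 0 of the 21, where 1.79% of all 32851 windows held it on either strand. The short form TGACG, which the full site contains, stood in 5 windows, 1 each of Pde1a, Pde2a, Pde4a, Pde4b and Pde8a, where 20.8% of all windows held it. Pde4a and Pde4b, of which 1 rose and 1 fell in cold BAT, each had it in 1 window, of 3 for Pde4a and 4 for Pde4b. The 1 window of Pde7b and the 1 window of Pde4d did not hold it. With unequal numbers of windows, these genes cannot be compared by whether they have the short form.

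**Figure D1:**
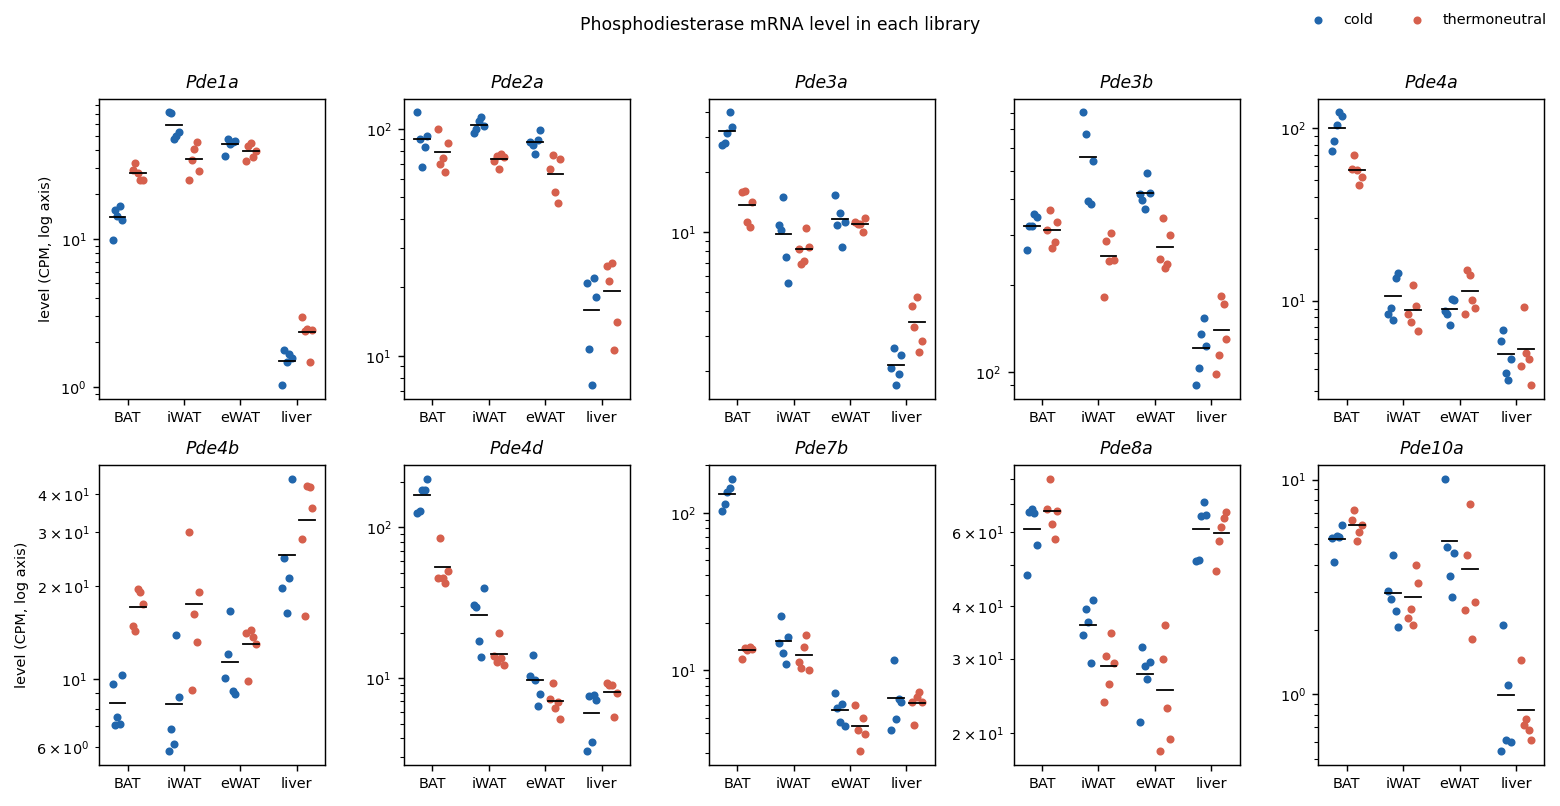
Level of each of the 10 genes in each library, in CPM on a log axis with its own range per panel, in cold (blue) and thermoneutral (red) libraries of 4 tissues; points are libraries and bars are means of 5. In BAT the cold libraries of Pde7b lie between 102 and 165 CPM and the thermoneutral ones between 11.8 and 14.1 CPM.

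In iWAT the list of genes that moved was another one: Pde3b, Pde1a and Pde2a rose and none fell. These are 3 of 10 genes, where 11.5% of the 16771 genes tested in iWAT changed, 7.20% upwards and 4.29% downwards. Pde3b had 801, 674, 393, 383 and 543 CPM in cold iWAT and 183, 286, 244, 305 and 245 CPM in thermoneutral iWAT. The cold libraries were all higher and spread widely, and Pde3b rose 2.16-fold (log2 1.11 ± 0.24, edgeR adjusted p = 0.0169). Pde1a, one of the genes that fell in BAT, had 71.7, 70.8, 47.4, 49.4 and 53.01 CPM in cold iWAT and 25.2, 34.4, 40.3, 45.1 and 28.99 CPM in thermoneutral iWAT. The groups did not overlap, and Pde1a rose 1.64-fold (log2 0.72 ± 0.18, adjusted p = 0.0324). Pde2a had 95.8, 100.0, 108, 113 and 103 CPM in cold iWAT and 72.3, 76.1, 66.6, 77.3 and 74.8 CPM in thermoneutral iWAT. Both groups were tight and stood apart, and Pde2a rose 1.38-fold (log2 0.46 ± 0.077, adjusted p = 0.00748). The 3 genes are the only ones of the 10 whose iWAT groups did not overlap, where 11.8% of all genes tested in iWAT did not.

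A further 2 genes lay near the threshold in iWAT. Pde4b had 5.82, 6.89, 6.12, 13.9 and 8.75 CPM in cold iWAT and 29.99, 9.23, 16.2, 13.1 and 19.1 CPM in thermoneutral iWAT. Only cold replicate 4 reached into the thermoneutral range, and the log2 change was -1.13 ± 0.34 (adjusted p = 0.0569). Pde4d had 30.6, 29.6, 17.6, 13.8 and 39.8 CPM in cold iWAT and 14.04, 12.7, 19.8, 13.6 and 12.1 CPM in thermoneutral iWAT. Cold replicates 1, 2 and 5 were high and cold replicates 3 and 4 were not. The 7 skeletal muscle markers summed to 906, 6.53, 2.10, 27.8 and 2298 CPM in cold replicates 1 to 5 and to 42.05, 48.8, 10663, 81.95 and 3.27 CPM in thermoneutral replicates 1 to 5, highest in thermoneutral replicate 3, which also had the most Pde4d of its group. The 6 brown adipocyte markers summed to 340.1, 1047, 116, 205 and 1135 CPM in cold replicates 1 to 5, highest in the same 3 libraries as Pde4d, and to 92.6, 81.3, 63.5, 46.7 and 44.5 CPM in thermoneutral replicates 1 to 5. The part of either cell type in the values of Pde4d was not tested. For Pde4d the log2 change was 0.83 ± 0.28 (adjusted p = 0.0806). Leaving out cold replicate 4 brought both under the threshold, Pde4b at an adjusted p of 0.0245 and Pde4d at 0.0228. So did leaving out thermoneutral replicate 2 for Pde4b (0.0464) and cold replicate 3 for Pde4d (0.0486). For each gene only 2 of 10 such fits passed, and the edgeR adjusted p reached 0.131 for Pde4b and 0.167 for Pde4d. Pde3a, Pde4a, Pde7b, Pde8a and Pde10a had log2 changes between 0.018 and 0.29 in iWAT and did not pass the test.

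The iWAT calls were less stable than those of BAT. Pde1a lost its call without thermoneutral replicate 1, 2 or 5 or cold replicate 1, 2 or 5 (adjusted p between 0.0535 and 0.0816), with no filter on low counts (0.0506) and with lymphocyte markers as a covariate (0.0983). Pde2a lost it on library totals without TMM scaling (adjusted p = 0.0701) and when all 40 libraries shared 1 fit (0.114). Beside these rises, 8 adipocyte markers summed to 17979 to 31158 CPM in cold iWAT and 8331 to 13492 CPM in thermoneutral iWAT, with 3 of the 8 higher. Their mean log2 CPM per library separated the groups too, at 9.94 to 10.53 in cold and 9.10 to 9.82 in thermoneutral iWAT. The sums of the 6 brown adipocyte markers, given above for each library, did not overlap either, with 2 of the 5 tested higher. The 8 markers of smooth muscle cells and pericytes, beside the rise of Pde1a, summed to 198 to 257 CPM in cold iWAT and 299 to 412 CPM in thermoneutral iWAT, with 1 of the 8 lower. The 9 lymphocyte markers summed to 19.4 to 623 CPM in cold iWAT and 306 to 1268 CPM in thermoneutral iWAT, with 0 of the 9 called by edgeR and 1 at an unadjusted p under 0.05. No marker of these lists was at 0 in every library, and the part of these cell types in the rises was not tested.

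In eWAT Pde3b alone changed among the 10 genes, where 3.78% of the 19123 genes tested changed and 1.77% rose (2.00% fell). Pde3b had 417, 398, 369, 492 and 419.7 CPM in cold eWAT and 248, 345, 229.5, 237 and 300.1 CPM in thermoneutral eWAT. Every cold library was higher, and Pde3b rose 1.52-fold (log2 0.61 ± 0.13, edgeR adjusted p = 0.0312). Pde2a had 87.6, 85.00, 77.8, 89.4 and 98.7 CPM in cold eWAT and 66.7, 76.5, 52.6, 47.1 and 73.4 CPM in thermoneutral eWAT. These groups did not overlap either, as for 7.57% of all genes tested in eWAT. The log2 change of 0.45 ± 0.14 did not pass (edgeR adjusted p = 0.103, and 0.0819 to 0.188 with 1 library left out). Of 8 other settings only 1 called Pde2a, DESeq2 at 0.0139, and the adjusted p ranged up to 0.528. The other 8 genes overlapped between the groups, with log2 changes between -0.36 for Pde4a and 0.45 for Pde4d. The call of Pde3b was lost without thermoneutral replicate 1, 3 or 4 or cold replicate 1, 2, 4 or 5 (adjusted p between 0.0585 and 0.0809), when all 40 libraries shared 1 fit (0.0615) and with lymphocyte markers as a covariate (0.687). Its log2 change was 0.54 with the covariate, 0.62 in the fit of all 40 libraries, and between 0.55 and 0.72 over the 10 fits that left out a library. The 8 adipocyte markers summed to 13683 to 21510 CPM in cold eWAT and 9154 to 12680 CPM in thermoneutral eWAT, with 1 of the 8 higher. The 9 lymphocyte markers summed to 60.4 to 199 CPM in cold eWAT and 234 to 434 CPM in thermoneutral eWAT, with 2 of the 9 lower. No marker of either list was at 0 in every library, and both sums separate the groups. The median log2 change of the 8 adipocyte markers was 0.074, and their mean log2 CPM per library overlapped between the groups. Cold eWAT replicate 1 stood apart in its 8 markers of smooth muscle cells and pericytes, which summed to 2525 CPM. In the other cold eWAT libraries they summed to 299 to 405 CPM. The part of adipocytes, or of smooth muscle cells and pericytes, in the rise of Pde3b was not tested.

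In liver none of the 10 genes changed by edgeR, where 1.66% of the 14472 genes tested changed. At an unadjusted p under 0.05 there were 2, Pde1a and Pde3a, and DESeq2 and limma-voom also called 0. None had groups without overlap, as 5.15% of all genes tested in liver did. Pde3a had 2.06, 2.60, 1.70, 1.93 and 2.40 CPM in cold liver and 4.26, 3.34, 4.68, 2.49 and 2.82 CPM in thermoneutral liver. The groups overlapped at 1 thermoneutral library, and the log2 change was -0.63 ± 0.23 (adjusted p = 0.122). Pde1a had 1.03, 1.77, 1.48, 1.67 and 1.56 CPM in cold liver and 2.97, 2.37, 2.45, 1.48 and 2.42 CPM in thermoneutral liver, a log2 change of -0.55 ± 0.24 (adjusted p = 0.187). When all 40 libraries shared 1 fit both fell, Pde3a with an adjusted p of 0.0181 and Pde1a with 0.0168. The 9 lymphocyte markers summed to 3.09 to 19.9 CPM in cold liver and 28.98 to 234 CPM in thermoneutral liver, with 1 of the 9 called lower. The 8 markers of smooth muscle cells and pericytes summed to 37.2 to 85.5 CPM in cold liver and 53.4 to 181 CPM in thermoneutral liver, with 0 of 7 tested called by edgeR and 3 at an unadjusted p under 0.05. The 7 macrophage markers summed to 70.7 to 190.4 CPM in cold liver and 140.5 to 361 CPM in thermoneutral liver, with 0 of 7 called and 6 at an unadjusted p under 0.05. No marker of these lists was at 0 in every library, and the part of these cell types in the values of Pde1a and Pde3a was not tested. Cold liver replicate 3 stood apart, with 21.9% of its counts from the mitochondrial genome, against 6.21% to 8.60% in the other 4 cold and 5.13% to 7.65% in the 5 thermoneutral liver libraries. Without it 0 of the 10 genes were called in liver, with log2 changes of -0.60 for Pde3a and -0.58 for Pde1a (adjusted p = 0.173 and 0.219). Pde8a, an enzyme of high affinity for cAMP, and Pde3b were the genes with the highest levels per length in liver, at log2 changes of 0.12 ± 0.14 and -0.12 ± 0.21.

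**Figure D2:**
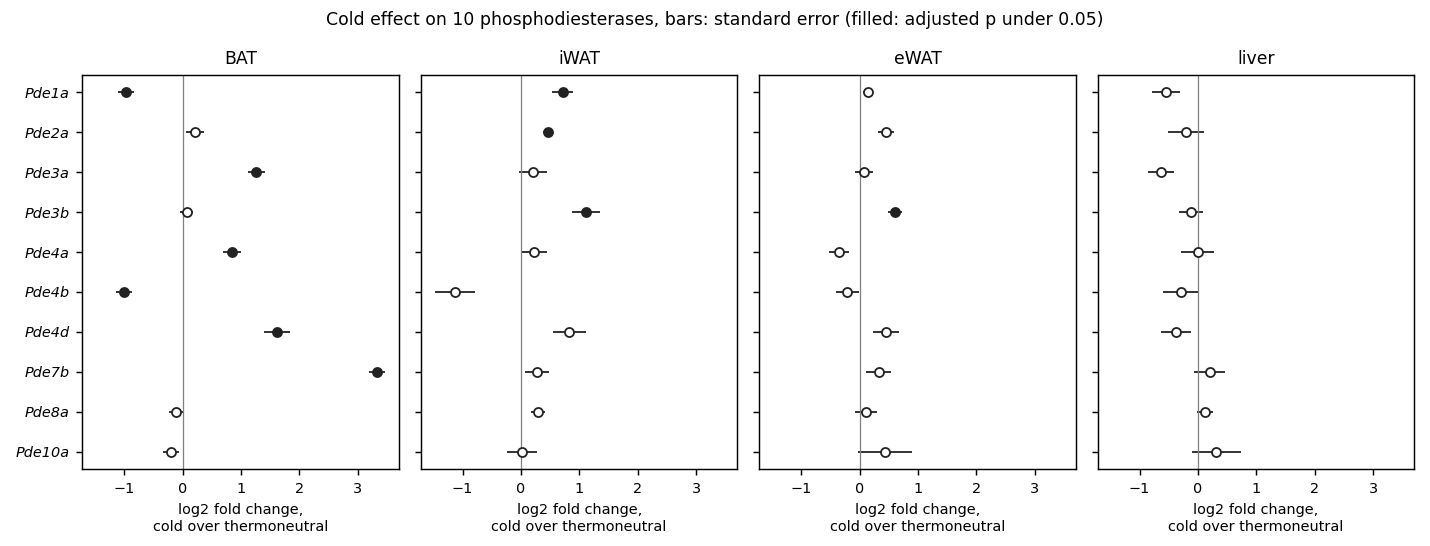
Log2 fold change of cold over thermoneutral for the 10 genes in each tissue, with bars of 1 standard error; filled points have an adjusted p under 0.05. BAT has 6 filled points, iWAT 3, eWAT 1 and liver 0.

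Whether the cold effect itself differed between tissues was tested by interaction contrasts in a fit of all 40 libraries, adjusted over 20756 genes. The effect in BAT differed from that in iWAT for 4 of the 10 genes, where 18.9% of all genes differed. Pde7b was 2.999 higher on the log2 scale in BAT (SE 0.30, adjusted p = 9.64e-09) and Pde3a 0.99 higher (SE 0.27, adjusted p = 0.00933). Pde1a, at -1.75 (SE 0.23, adjusted p = 9.51e-07), and Pde3b, at -1.10 (SE 0.26, adjusted p = 0.00228), had the lower effect in BAT. For Pde1a the signs were opposite, a fall in BAT and a rise in iWAT.

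Between BAT and eWAT 5 genes differed, where 23.0% of all genes did. Pde7b was 2.95 higher in BAT (adjusted p = 7.28e-09), Pde4a 1.16 (0.00687), Pde3a 1.15 (0.00185) and Pde4d 1.12 (0.0219). Pde1a was lower in BAT at -1.16 (0.000218). Pde4d lost its call without 1 library, eWAT thermoneutral replicate 2, where its difference was 1.001 and its adjusted p 0.05. Between BAT and liver 4 genes differed, where 24.1% of all genes did: Pde7b by 3.19 (adjusted p = 1.71e-09), Pde4d by 2.05 (7.19e-05), Pde3a by 1.96 (2.76e-06) and Pde4a by 0.91 (0.0373), all higher in BAT. Pde4a lost this call without any 1 of 11 libraries, which were BAT thermoneutral replicates 1, 3, 4 and 5, BAT cold replicates 3, 4 and 5, liver thermoneutral replicate 2 and liver cold replicates 3, 4 and 5. Its adjusted p was then between 0.0502 and 0.152, and without liver thermoneutral replicate 2 the difference was 0.61. It also lost the call with limma-voom (0.105) and with no filter on low counts (0.0592).

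Between iWAT and eWAT 0 of the 10 genes differed by edgeR, where 0.159% of all genes did; 2 had an unadjusted p under 0.05, and limma-voom and DESeq2 also called 0. The rise of Pde3b in iWAT was therefore not shown to exceed that in eWAT, with a difference of 0.52 ± 0.26 (adjusted p = 0.523). Between iWAT and liver 4 genes differed, where 6.35% of all genes did. Pde1a was 1.39 higher in iWAT (adjusted p = 0.000423), Pde3b 1.35 (0.00123), Pde4d 1.33 (0.0253) and Pde3a 0.97 (0.0321). In the separate fits of iWAT and liver neither Pde4d nor Pde3a was called. There Pde4d had log2 changes of 0.83 in iWAT and -0.38 in liver, and Pde3a 0.21 and -0.63. Pde3a lost its call without any 1 of 12 libraries, iWAT thermoneutral replicates 1, 2, 3 and 5, iWAT cold replicates 1, 2 and 3, liver thermoneutral replicates 1 and 3 and liver cold replicates 1, 3 and 4 (adjusted p between 0.0508 and 0.0783), and also with limma-voom, RLE scaling or library totals (0.231, 0.0662 and 0.0999). Pde4d lost its call without any 1 of 6, iWAT thermoneutral replicates 2 and 5, iWAT cold replicates 2 and 5 and liver cold replicates 1 and 3 (adjusted p between 0.0514 and 0.0643), and with limma-voom or library totals (0.0928 and 0.0532). Between eWAT and liver 0 of the 10 differed by edgeR, where 2.74% of all genes did; 5 had an unadjusted p under 0.05, and DESeq2 and limma-voom also called 0. Pde1a differed there, at an adjusted p of 0.0189 without liver thermoneutral replicate 4, 0.0461 without liver cold replicate 5 and 0.0492 without BAT cold replicate 1. Pde3b did so without liver thermoneutral replicate 1 (0.0445). These were 3 and 1 of 40 such fits, whose edgeR adjusted p reached 0.136 for Pde1a and 0.16 for Pde3b.

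Set against each other per kilobase of exon, which allows levels of different genes to be compared, the 10 genes formed a different mixture in each tissue. Pde3b led in all 3 adipose tissues in both exposures, with 32.6 ± 1.16% of the summed CPM per kilobase in cold BAT and 40.5 ± 1.71% in thermoneutral BAT (SD, n = 5). In iWAT its share was 58.1 ± 6.88% in cold and 47.1 ± 3.73% in thermoneutral libraries, and in eWAT 57.99 ± 2.82% in cold and 51.6 ± 3.65% in thermoneutral libraries. In liver Pde8a had 42.5 ± 1.91% in cold and 38.1 ± 3.77% in thermoneutral libraries, beside Pde3b at 37.2 ± 3.71% in cold and 38.8 ± 4.75% in thermoneutral libraries. The shares of a group sum to a whole, so a rise of 1 gene lowers the others.

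The mixture of BAT shifted most visibly through Pde7b, which held 9.72 ± 0.944% in cold BAT and 1.29 ± 0.187% in thermoneutral BAT. It ranked 6 of the 10 in cold BAT and 8 in thermoneutral BAT. Pde4d held 12.5 ± 1.79% in cold BAT and 5.29 ± 1.14% in thermoneutral BAT. The 3 PDE4 genes together reached 27.5 ± 5.69 CPM per kilobase in cold BAT and 13.6 ± 2.34 in thermoneutral BAT (SD, n = 5), against group means of 3.05 to 4.48 in the other 3 tissues. The sum over all 10 genes was 108 ± 10.9 CPM per kilobase in cold BAT and 84.6 ± 9.28 in thermoneutral BAT. In iWAT it was 103 ± 21.4 in cold and 58.4 ± 7.14 in thermoneutral libraries, in eWAT 79.1 ± 5.34 in cold and 57.7 ± 7.88 in thermoneutral libraries, and in liver 35.5 ± 5.27 in cold and 38.96 ± 5.74 in thermoneutral libraries. These sums rest on CPM with TMM scaling. On library totals Pde3b, the gene with the largest share in adipose tissue, was lower in thermoneutral BAT than in both white depots. The order of the sums between BAT and the white depots is therefore not settled here. With TMM every liver library, at most 46.3 CPM per kilobase, lay under every adipose library, at least 48.6. Sums on library totals were not computed. The exon lengths are the union of all annotated exons of a gene, so a gene with a long exon that the tissue does not use is set too low.

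**Figure D3:**
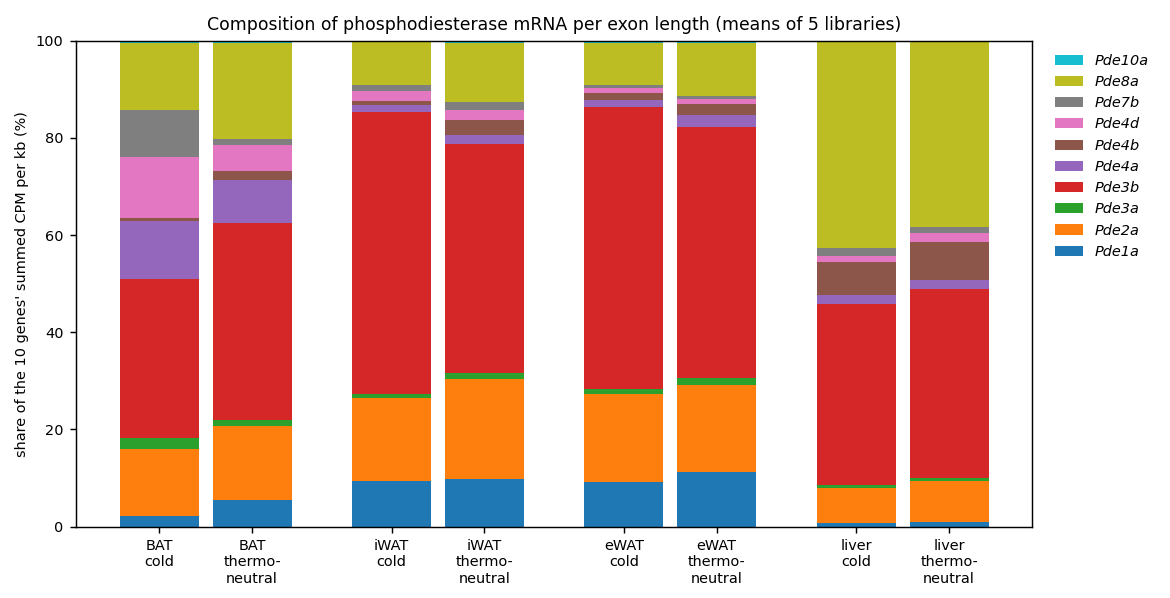
Mean share of each gene in the summed CPM per kilobase of exon of the 10 genes, in percent, for cold and thermoneutral groups of each tissue (5 libraries each). Pde3b takes the largest share in adipose tissue, and Pde7b widens to 9.72% in cold BAT against 1.29% in thermoneutral BAT.

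Levels under thermoneutral conditions were then compared between tissues in the fit of all 40 libraries. These contrasts depended on the scaling. On library totals without TMM scaling the median of all genes was -0.90 for BAT over iWAT and -1.17 for BAT over eWAT, where it was -0.084 and -0.23 with TMM. For iWAT over liver it was 1.34 on totals and 0.20 with TMM, for eWAT over liver 1.60 and 0.35, and for BAT over liver 0.38 and 0.060. The share of higher genes among those that differed moved as well, to 9.8% on totals against 47.7% with TMM for BAT over iWAT and to 87.7% against 58.7% for eWAT over liver.

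Pde4a and Pde4d were higher in BAT than in the other 3 tissues. The thermoneutral mean of Pde4a was 56.8 ± 8.73 CPM in BAT (SD, n = 5), against 11.3 ± 3.01 CPM in eWAT, 8.80 ± 2.16 CPM in iWAT and 5.23 ± 2.30 CPM in liver. Its BAT level was 6.45-fold that of iWAT (adjusted p = 2.58e-11) and 5.005-fold that of eWAT (adjusted p = 3e-10). Pde4d had 54.4 ± 17.5 CPM in BAT, 14.5 ± 3.06 CPM in iWAT, 8.15 ± 1.54 CPM in liver and 7.04 ± 1.43 CPM in eWAT. It was 7.72-fold higher in BAT than in eWAT (adjusted p = 4.1e-11) and 2.05-fold higher in iWAT than in eWAT (adjusted p = 0.00218), while the difference of eWAT from liver did not pass with TMM (log2 -0.21 ± 0.26) and was 1.04 on totals. On library totals both stayed higher in BAT than in iWAT, eWAT and liver.

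Of the 10 genes, 5 differed between BAT and iWAT, where 47.3% of all genes did, and 5 between BAT and eWAT, where 61.9% did. Pde8a was higher in BAT than in iWAT (log2 1.22 ± 0.15) and eWAT (log2 1.41 ± 0.15), also on totals. The difference of Pde7b between BAT and iWAT did not pass with TMM (log2 0.098 ± 0.21), and on totals Pde7b was lower in BAT (log2 -0.71, adjusted p = 0.0025). In both tissues it was higher than in eWAT. Its means were 13.4 ± 0.946 CPM in BAT, 12.5 ± 2.86 CPM in iWAT, 6.23 ± 1.05 CPM in liver and 4.43 ± 1.11 CPM in eWAT. Pde3a and Pde10a were called higher in BAT than in iWAT with TMM and not on totals, where Pde3a had -0.095 and Pde10a 0.29. Pde1a was lower in BAT than in eWAT (log2 -0.48 ± 0.16, adjusted p = 0.00954). Between iWAT and eWAT Pde4d and Pde7b differed, 2 of 10 where 36.9% of all genes did.

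Between BAT and liver 9 of the 10 genes differed, 8 higher in BAT and 1 lower, where 63.4% of all genes differed. Between iWAT and liver 10 differed, 8 higher in iWAT and 2 lower (68.0% of all genes). Between eWAT and liver 9 differed, 6 higher in eWAT and 3 lower, namely Pde4b, Pde7b and Pde8a (75.8% of all genes). The call of Pde7b (log2 -0.49 ± 0.21, edgeR adjusted p = 0.0387) was lost without any 1 of 7 libraries (0.0553 to 0.121) and in 3 other settings. On library totals its sign turned, at 0.78. Pde1a had 39.01 ± 4.50 CPM in eWAT, 34.8 ± 8.11 CPM in iWAT, 27.9 ± 3.18 CPM in BAT and 2.34 ± 0.538 CPM in liver, the widest range of the 10 genes over thermoneutral tissues as a ratio of the highest mean to the lowest. Pde3b had 312 ± 38.01 CPM in BAT, 272 ± 49.2 CPM in eWAT, 253 ± 47.2 CPM in iWAT and 139.8 ± 36.8 CPM in liver, and no difference between adipose tissues passed the test with TMM. Pde2a had 79.03 ± 14.3 CPM in BAT, 73.4 ± 4.25 CPM in iWAT, 63.3 ± 12.9 CPM in eWAT and 19.3 ± 6.64 CPM in liver, and again no difference among the adipose tissues passed. On totals Pde2a and Pde3b were lower in BAT than in both white depots, so their order among adipose tissues is not settled by these data. Pde4b, by contrast, was highest in liver with TMM, at 32.97 ± 11.1 CPM, against 17.1 ± 2.42 in BAT, 17.5 ± 7.87 in iWAT and 12.99 ± 1.86 in eWAT, but on totals it was no longer called between any adipose tissue and liver. Pde8a, at 67.1 ± 8.43 CPM in BAT, 59.7 ± 7.36 CPM in liver, 28.8 ± 4.13 CPM in iWAT and 25.2 ± 7.58 CPM in eWAT, was higher in liver than in the white depots with TMM, which on totals did not pass (log2 0.093 for iWAT over liver and 0.031 for eWAT over liver, adjusted p = 0.577 and 0.852). Pde10a, at 6.14 ± 0.798 CPM in BAT, 3.81 ± 2.37 CPM in eWAT, 2.83 ± 0.792 CPM in iWAT and 0.842 ± 0.337 CPM in liver, was the least abundant of the 10 per length in each group.

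The other 14 genes with Pde symbols were too low to test in part. In BAT 10 of them passed the filter, and 3 rose, 4 fell and 3 did not pass the test. Among all genes tested in BAT 30.2% rose and 30.0% fell. Pde1c, a calmodulin-stimulated enzyme of the same subfamily as Pde1a, rose 24.9-fold (log2 4.64 ± 0.22, edgeR adjusted p = 3.33e-08). Its level was 4.54 ± 0.377 CPM in cold BAT and 0.183 ± 0.0568 CPM in thermoneutral BAT, so within this subfamily 1 gene rose and 2 fell. Pde4c rose by 1.001 ± 0.18 on the log2 scale (adjusted p = 0.000566) and Pde8b, the relative of Pde8a, by 1.19 ± 0.24 (0.00104). Pde1b, Pde5a, Pde6d and Pde9a were lower in cold BAT, with log2 changes of -0.66 ± 0.17, -0.47 ± 0.18, -0.27 ± 0.085 and -1.19 ± 0.21; Pde5a and Pde9a make cGMP-specific enzymes. Pde7a, the paralog of Pde7b, had a log2 change of 0.022 ± 0.14 (adjusted p = 0.908), and Pde6g and Pde11a did not pass either, at 0.52 ± 0.41 and -0.77 ± 0.54. In iWAT Pde6d alone of 9 tested changed, at -0.35 ± 0.098 (adjusted p = 0.0459). In eWAT 0 of 10 tested changed by edgeR, with 2 at an unadjusted p under 0.05, Pde8b at 1.58 ± 0.59 and Pde11a at -0.78 ± 0.34. In liver 0 of 10 tested changed by edgeR, and 0 had an unadjusted p under 0.05. Of all genes tested, 11.5% changed in iWAT, 3.78% in eWAT and 1.66% in liver.

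**Figure D4:**
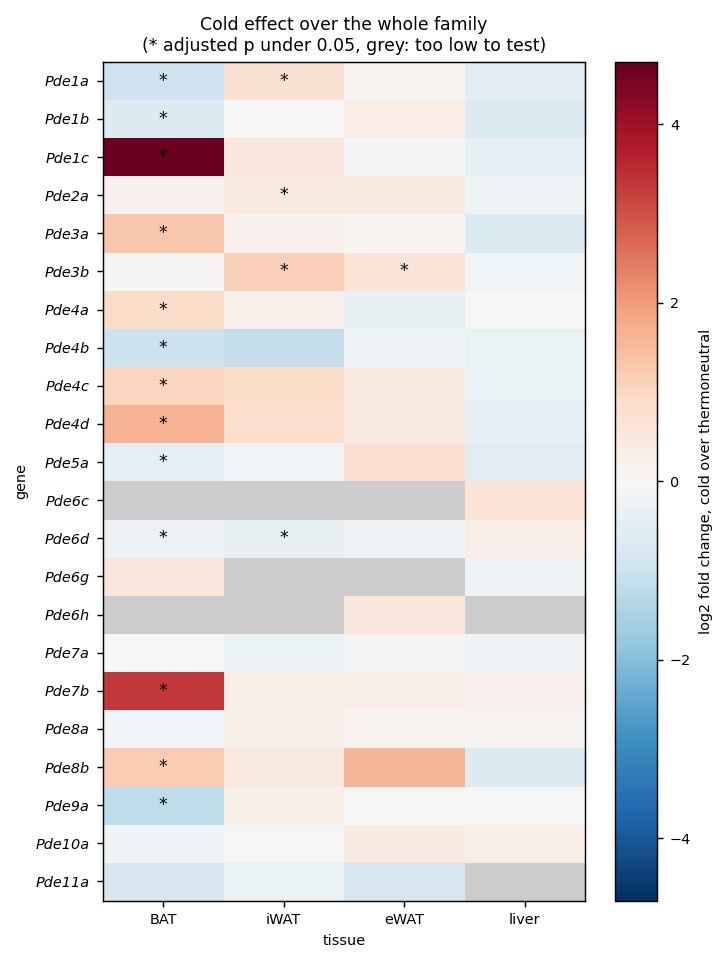
Log2 fold change of cold over thermoneutral for each gene with a Pde symbol that could be tested in at least 1 tissue. Stars have an adjusted p under 0.05 and grey cells were too low to test. In BAT 13 cells carry a star, with Pde1c at 4.64 and Pde7b at 3.33 the farthest from 0.

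The genes around the phosphodiesterases were counted from lists of the cyclic nucleotide pathway. In BAT these counts stand beside 30.2% of all genes higher and 30.0% lower. In BAT, of 16 tested genes for cAMP synthesis 6 rose and 3 fell, with Adcy3, an adenylyl cyclase, at 3.91 ± 0.14. Of 9 genes for cGMP synthesis 1 rose and 5 fell, with the nitric oxide synthase Nos2 at -1.78 ± 0.16 and the guanylyl cyclase subunit Gucy1a1 at -1.13 ± 0.11. Of 12 effectors of cyclic nucleotides 7 rose and 2 fell, with the protein kinase A subunits Prkar1a at 0.97 ± 0.070 and Prkar2a at 1.14 ± 0.085. Of 12 anchors and partners of phosphodiesterases 2 rose and 2 fell, with the anchoring proteins Akap5 at -3.34 ± 0.21 and Akap8 at 0.29 ± 0.080. Of 12 transcripts known to be induced by cAMP 9 rose and 2 fell, with the coactivator Ppargc1a at 3.18 ± 0.21 and the deiodinase Dio2 at 6.43 ± 0.51. The median log2 change of that last list was 1.27, against 0.15 over the 10 phosphodiesterases and -0.038 over all genes tested.

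In the other tissues fewer pathway genes moved, as did fewer of all genes (11.5% in iWAT, 3.78% in eWAT, 1.66% in liver). In iWAT 3 cAMP synthesis genes rose and 2 fell of 16, with Adcy3 at 1.68 ± 0.29 and Adcy4 at 0.62 ± 0.15, and 4 of 12 cAMP-induced transcripts rose, with Dio2 at 7.51 ± 0.66 and the transcription factor Nfil3 at 1.80 ± 0.24. Of 9 cGMP synthesis genes in iWAT 1 rose, Nos3, the endothelial nitric oxide synthase (0.66 ± 0.18), and 1 fell, Nos2 (-0.94 ± 0.24). Of 13 effectors 1 rose, the protein kinase A subunit Prkar2b (1.45 ± 0.28). Of 12 anchors and partners 1 rose, Akap1 (0.59 ± 0.16), and 1 fell, Akap5 (-2.49 ± 0.57). In eWAT 2 of 17 cAMP synthesis genes rose and 1 fell, with Adcy5 at 0.92 ± 0.21 and Adcy7 at -0.55 ± 0.11. Of 12 cAMP-induced transcripts 1 rose, Nr4a3 (2.04 ± 0.42), and of 9 cGMP synthesis genes 1 fell, Nos2 (-1.19 ± 0.20). By edgeR 0 of 13 effectors and 0 of 12 anchors and partners were called in eWAT. In liver 1 of 15 cAMP synthesis genes fell, the receptor Adrb1 (-1.61 ± 0.33), and 1 of 10 cAMP-induced transcripts rose, the phosphatase Dusp1 (0.94 ± 0.20). Of the genes for cGMP synthesis, the effectors and the anchors 0 were called in liver by edgeR.

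Genes with the most similar course over the 8 groups were found by the root mean square difference of group means in log2 CPM, each centred on its own mean, among 11013 genes (11014 for Pde10a) of at least 10 CPM in some group. Pde8a had the closest neighbours, Zadh2 at 0.081, Mrpl50 at 0.091 and Cbr4 at 0.091, where the median over all genes was 0.77. Pde2a was next to Ppm1m (0.14), Gpihbp1 (0.18) and Mlxip (0.18). Pde4a was next to Grk3 (0.15), Pfkl (0.28) and Nrp2 (0.37), and Pde4d next to Adra1a (0.19) and Clstn3 (0.39). Pde1a was next to Pxdn (0.17), Nos3 (0.29) and Phldb1 (0.30), and Pde3a next to Kdr (0.22), Rapgef5 (0.24) and Bmp6 (0.25). Pde3b was next to Fam204a (0.18), Lrp12 (0.20) and Etv3 (0.22), and Pde4b next to Dcps (0.20), Akip1 (0.22) and Arap1 (0.22). Pde10a was next to Tacc1 (0.22), Slc41a1 (0.22) and G6pc3 (0.24). Pde7b, the gene with the largest cold change, had the most distant nearest neighbour of the 10, Hebp2 at 0.42, followed by Cars2 at 0.45 and E2f2 at 0.45.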

How the data were processed

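RNA from 40 mouse tissue samples, 5 in each of 4 tissues and 2 exposures, was sequenced from libraries made, per the labels, with the TruSeq RNA kit v2, whose reads carry no strand information. The deposited table holds expected counts per gene symbol, not normalized by the authors. The submitters' processing notes name FastQC, STAR 2.7.8a, RSEM 1.3.0, DESeq and 2 builds (GRCm39, GRCm38), without roles; the annotation is not given in the sources used here. The values were already whole numbers. Of the 53863 symbols, 78 stood on several lines and were reduced to the sum over their genes; the 10 phosphodiesterases had 1 line each. The libraries were grouped by the labels, and no 2 libraries of a group agreed within sampling noise.

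Cold and thermoneutral libraries of a tissue were compared with edgeR 4.0.16 in R 4.3.3 by its robust quasi-likelihood F-test, after filterByExpr (minimum count 10, minimum total 15) and TMM scaling. P-values were adjusted by Benjamini-Hochberg over all genes of a fit. Differences between tissues and thermoneutral tissue contrasts came from 1 fit of 40 libraries and 20756 genes. The standard error is the log2 change divided by the root of F. Alternatives were DESeq2 1.42.0, limma-voom (limma 3.58.1), RLE scaling, library totals, no filter, a lymphocyte covariate, a replicate block, all libraries in 1 fit, and leaving out each library. The procedure was tested on simulated data. The members, the lists and the naming rule were chosen with earlier results of these data known. The rule names all 10 phosphodiesterases, each tested gene of the other 14, 2 called genes of smallest p per pathway list and tissue, and the 3 most similar genes per phosphodiesterase. Some genes that the rule names are not reported here. Exon lengths are from GENCODE M21 (GRCm38). Pde2a shares exons with Gm45837, which had 3.90% of its mean count, and Pde3a with the antisense gene Gm28523, which had 2.79%, so reads of these pairs cannot be fully told apart.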

Additional observations from a re-analysis of the deposited data

Results flagged for a closer look

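Of 80 sets of 5 libraries, 1 for each gene and group, 6 had a library far from the other 4 by Dixon's test, and chance flags about 1 set in 20. Pde4d in thermoneutral BAT replicate 2 was at 85.1 CPM, with the next library at 51.6 CPM, and in thermoneutral iWAT replicate 3 at 19.8 CPM, with the next at 14.0 CPM. In that iWAT library the 7 skeletal muscle markers summed to 10663 CPM, against 3.27 to 81.95 CPM in the other 4. Pde7b in thermoneutral BAT replicate 1 was lowest at 11.8 CPM, with the next at 13.5 CPM. Pde4a in thermoneutral liver replicate 2 was at 9.18 CPM, with the next at 4.97 CPM. Pde10a in cold eWAT replicate 1 was at 10.1 CPM, with the next at 4.82 CPM. In that library the 8 markers of smooth muscle cells and pericytes summed to 2525 CPM, against 299 to 405 CPM in the other 4 of its group. The part of either cell type was not tested. Pde10a was also high in thermoneutral liver replicate 1, at 1.44 CPM, with the next at 0.762 CPM.

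The cold effect differed between tissues in 17 tests of the difference itself, each an interaction contrast by edgeR with adjustment over all genes. For BAT minus iWAT the difference was 2.999 for Pde7b, 0.99 for Pde3a, -1.10 for Pde3b and -1.75 for Pde1a on the log2 scale. For BAT minus eWAT it was 2.95 for Pde7b, 1.16 for Pde4a, 1.15 for Pde3a, 1.12 for Pde4d and -1.16 for Pde1a. For BAT minus liver it was 3.19 for Pde7b, 2.05 for Pde4d, 1.96 for Pde3a and 0.91 for Pde4a. For iWAT minus liver it was 1.39 for Pde1a, 1.35 for Pde3b, 1.33 for Pde4d and 0.97 for Pde3a.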

How the results depend on the processing

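Of the 10 genes, 6 were called in BAT under each alternative run. In iWAT 3 were called, 5 with DESeq2 and 2 to 5 when 1 library was left out. In eWAT 1 was called, 2 with DESeq2, 0 with the lymphocyte covariate or with all 40 libraries in 1 fit, and 0 to 1 when 1 library was left out. In liver 0 were called and 2 with all 40 libraries in 1 fit. The difference of iWAT minus liver had 4 calls, 2 with limma-voom, 2 on library totals and 2 to 5 when 1 library was left out. That of eWAT minus liver had 0, 2 on library totals and 0 to 1 when 1 library was left out. On library totals 8 genes were called for thermoneutral BAT over iWAT and 8 for BAT over eWAT, against 5 in each with TMM. With TMM 47.3% and 61.9% of all genes differed in these contrasts, and the share on totals is not given here. The median of all genes also moved on totals, so the higher counts are not read as a result about the 10 genes. Over all genes, the number called in iWAT was 1926, with 3346 by DESeq2 and 1217 without a filter, in eWAT 722, with 2150, 372 and 0 with the lymphocyte covariate, and in liver 240, with 1643 by DESeq2, 1 by limma-voom, 16 on library totals, 0 with the lymphocyte covariate and 2562 in the fit of all 40 libraries. In BAT the lymphocyte covariate left 5620 calls of 9200. On totals the share of higher genes among the called was 46.1% in iWAT, against 62.7% with TMM, and 31.2% in liver, against 60.8%. The cause of these differences was not tested.

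Equal replicate numbers did not meet the rule for pairing, a correlation over 0.1 in every pair: cold and thermoneutral libraries of equal number had correlations of their deviations between -0.768 and 0.358, and 5 of 20 pairs were over 0.1, with 3 of 20 libraries correlating best with their own number. Between tissues 14 of 60 pairs were over 0.1 and in 25 of 60 the library correlated best with its own number, where 1 in 5 would be so at random. With the number as a replicate block BAT kept a count of 6 called genes, iWAT had 0 (adjusted p = 0.161 for Pde1a, 0.092 for Pde2a and 0.122 for Pde3b) and eWAT 0 (0.117 for Pde3b). The difference of iWAT minus liver had 3 under the block, and the counts of the other 5 differences and of the 6 thermoneutral contrasts equalled those without it. Over all genes the block left 108 calls in iWAT, 22 in eWAT and 5 in liver. The block turned the sign of Pde4a (cold liver) 0.046, Pde4b (BAT over iWAT) 0.029.

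On library totals the sign turned for cold iWAT Pde10a -0.097, for cold liver Pde8a -0.050, for iWAT minus eWAT Pde2a -0.13, for BAT over iWAT Pde2a -0.72, Pde3a -0.095, Pde3b -0.51 and Pde7b -0.71, for BAT over eWAT Pde2a -0.61, Pde3a -0.63, Pde3b -0.73, Pde4b -0.56 and Pde10a -0.26, for iWAT over liver Pde4b 0.27 and Pde8a 0.093, for eWAT over liver Pde4d 1.04, Pde7b 0.78 and Pde8a 0.031 (log2). With lymphocyte markers as covariate the sign turned for cold iWAT Pde3a -0.17 and Pde10a -0.30, for cold eWAT Pde8a -0.077 and Pde10a -0.12, for cold liver Pde4b 1.08, Pde8a -0.020 and Pde10a -0.087 (log2). With limma-voom the sign turned for cold liver Pde4a 0.031, for BAT over iWAT Pde4b 0.054 (log2). With DESeq2 the sign turned for iWAT minus eWAT Pde2a -0.0055 (log2). With RLE scaling the sign turned for iWAT minus eWAT Pde2a -0.0055 (log2). Leaving out 1 library turned the sign of 19 results that were not called, whose ranges were Pde10a (cold iWAT) -0.17 to 0.19, Pde3a (cold eWAT) -0.035 to 0.18, Pde4a (cold liver) -0.17 to 0.29, Pde3b (cold liver) -0.22 to 0.0095, Pde7b (cold liver) -0.11 to 0.34, Pde10a (cold liver) -0.17 to 0.59, Pde4b (BAT minus iWAT) -0.24 to 0.30, Pde4b (BAT over iWAT) -0.20 to 0.24, Pde1a (iWAT over eWAT) -0.28 to 0.011. The others were Pde3b (iWAT over eWAT) -0.18 to 0.065, Pde2a (iWAT minus eWAT) -0.046 to 0.14, Pde7b (iWAT minus eWAT) -0.19 to 0.095, Pde3a (iWAT minus eWAT) -0.039 to 0.31, Pde8a (eWAT minus liver) -0.0054 to 0.27, Pde10a (iWAT minus eWAT) -0.81 to 0.016, Pde10a (eWAT minus liver) -0.19 to 0.69, Pde4b (eWAT minus liver) -0.043 to 0.49, Pde10a (BAT minus liver) -0.73 to 0.023, Pde10a (iWAT minus liver) -0.45 to 0.30. Levels of 60 of the 80 gene and group means moved by more than 1 SD on library totals. Counting error weighs most on Pde10a, Pde1a and Pde3a in liver, each under 5 CPM in every library.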
